A study of Mus musculus with 8 samples.

Results

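The 10 Notch pathway genes described here were followed through tag counts of mouse neural tube, namely the receptors Notch1, Notch2 and Notch3, the ligands Dll1, Dll3 and Jag1, the glycosyltransferase Lfng and the target genes Hes1, Hes5 and Hey1. They were chosen by name as pathway members, and all 10 were found among the 26608 genes listed for each library. The tissue came from FVB embryos at day 8.5 of gestation and was taken by laser from cryosections at neural tube closure site 1, either just in front of it (open) or just behind it (closed). Embryos had developed in diabetic or in normal dams. There are 4 groups with 2 libraries in each: normal open (libraries 09 and 10), normal closed (11 and 12), diabetic open (13 and 14) and diabetic closed (15 and 16). Neither the way the dams became diabetic nor the number of embryos or litters behind a library is given in the sources used here. Open and closed tissue also differ in axial level, which cannot be told apart from closure in this design.

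Notch signalling passes between cells in contact. A Delta or Jagged ligand on one cell binds a Notch receptor on its neighbour, the receptor is cut by ADAM proteases and by gamma-secretase, and its intracellular part joins the DNA-binding factor Rbpj to switch on Hes and Hey genes, which encode basic helix-loop-helix repressors. In the neural tube this keeps part of the cells as progenitors while others become neurons, and in the mesoderm beside it the same genes take part in the clock that forms somites. Endothelial cells also use the pathway, with Notch4 and Dll4 as members typical of them.

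Each library counted 1 short tag per transcript rather than reads along its length, so levels are counts per 1000000 tags of the library total (CPM) and are not divided by gene length. The tag starts at the last CATG before the 3′ end that leaves room for a whole tag, the site cut by the anchoring enzyme NlaIII of this kind of kit. That is background on the method, since the labels do not name the enzyme. The predicted tags of 27 bases below, with the CATG in capitals, are those that the counts of these genes would rest on under this assumption. They were read from the longest protein-coding GENCODE M21 transcript of each gene (GRCm38, the C57BL/6J reference, not the mm9 build of the counts). The first 5 lie close to the 3′ end and the last 5 far from it.
Hes5: CATGtgggagaacacaggctgttctga
Notch1: CATGcaaaactgtaggtaatgaaaatg
Hes1: CATGcactgcatttgtatatattttat
Hey1: CATGaaaatgtggttcttgcagtactt
Dll1: CATGatatctgtaaagcttgagtattt
Dll3: CATGggcgtgagatgcgagttcgctgt
Notch2: CATGgaatagagacattttattgccct
Lfng: CATGtttgagaacaagcggaacgcagt
Notch3: CATGgagaggaatatcctgcagcagga
Jag1: CATGgataaacaccagcagaaagtccg

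Each of these 10 tags was the last tag of 1 gene only among all GENCODE transcripts. The 5 near the end lie in the 3′ UTR, for Hes5 at chr4:154962317-154962343 (plus strand), for Notch1 at chr2:26457979-26458005 (minus), for Hes1 at chr16:30067600-30067626 (plus), for Hey1 at chr3:8663532-8663558 (minus) and for Dll1 at chr17:15367550-15367576 (minus). The Notch2 tag, at chr3:98149357-98149383 (plus), is in the 3′ UTR as well. Those of Dll3 (chr7:28294614-28294640, minus), Lfng (chr5:140614208-140614234, plus), Notch3 (chr17:32122102-32122128, minus) and Jag1 (chr2:137083175-137083201, minus) fall in coding sequence.

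The 5 members with the higher levels were those whose last CATG lies near the 3′ end. The distance from that site to the end was 55 bases for Hes5, 103 for Notch1, 197 for Hes1, 200 for Hey1 and 223 for Dll1, and these genes averaged 20.4 to 114 CPM over the 8 libraries. It was 756 bases for Dll3, 1005 for Notch2, 1208 for Lfng, 1309 for Notch3 and 1746 for Jag1, which averaged 0.0149 to 5.44 CPM. Over the 18561 genes of the files with such a site in a protein-coding transcript, the share with a mean of at least 20 CPM was 29.5% below 100 bases, 26.1% from 100 to 250, 22.4% from 250 to 500, 17.3% from 500 to 1000 and 8.97% from 1000 to 2000. The share with any count hardly varied over these bins, from 65% to 66.3%, and was 9.3% for the 86 genes with no CATG. The part of tag position in the low levels of single members was not tested. The wider pathway list also held exceptions, with 4 of its 15 genes at 250 bases or more reaching 20 CPM (Fbxw7 at 1131 bases with 22.4 CPM, Poglut1 at 594 with 31.1, Pofut1 at 437 with 20.2 and Maml1 at 301 with 32.9), against 13 of 27 below 250 bases. The values given for Jag1, Notch3 and the other 3 are counts per gene symbol, and whether they came from these predicted tags was not checked.

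**Figure D1:**
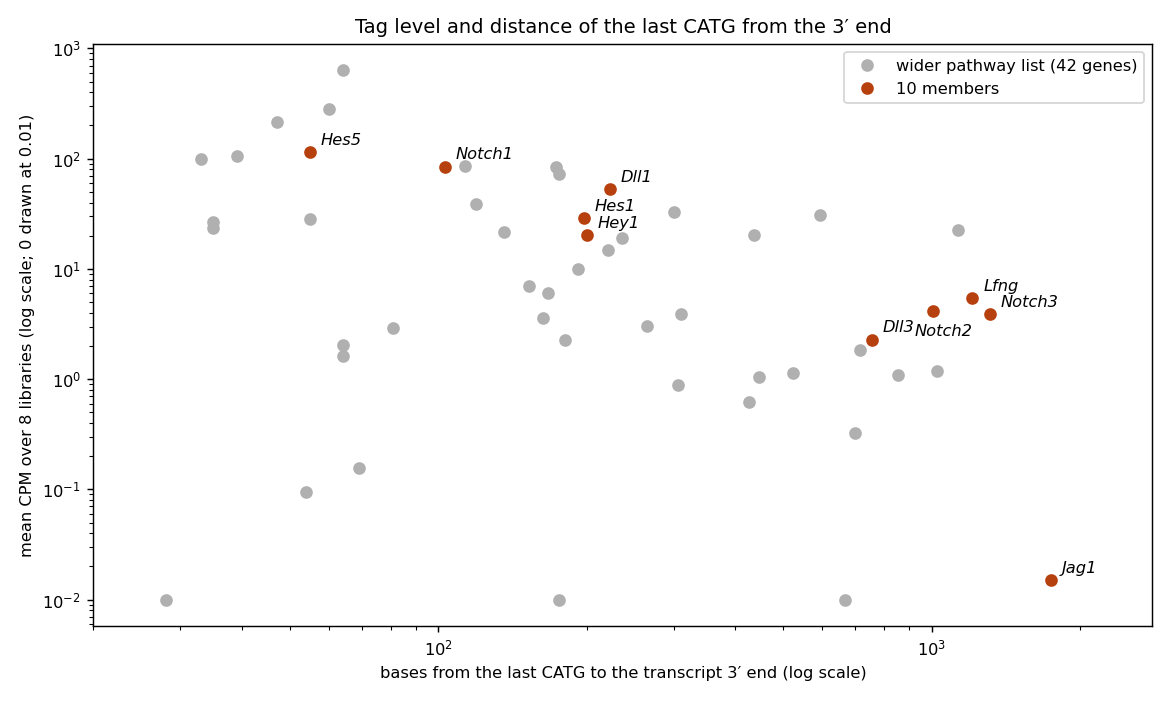
Mean CPM over the 8 libraries (vertical, log scale) against the distance in bases from the last CATG to the transcript's 3′ end (horizontal, log scale) for the 10 members and 42 further Notch pathway genes. The members at 55 to 223 bases average 20.4 to 114 CPM and those at 756 to 1746 bases average 0.0149 to 5.44 CPM, while genes of the wider list spread over a broad range at short distances, reach up to 32.9 CPM at 250 bases or more, and the 3 without a tag are drawn at 0.01.

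Library totals ran from 5041586 to 16655583 tags, so that 3 tags correspond to 0.18 to 0.595 CPM. Markers of the neural tube were present, with 7 neural progenitor genes summing to 595 to 977 CPM in 7 libraries. Diabetic open library 13 stood apart, at 167 CPM. Its 10 genes of somites and paraxial mesoderm summed to 1844 CPM, against 161 to 946 CPM elsewhere, its 14 endothelial genes to 364 CPM (40.6 to 150.3), its 7 heart genes to 171 CPM (0 to 5.999) and its 7 surface ectoderm genes to 324 CPM (58.4 to 287). Single genes did not all follow these sums. Sox1, Sox2, Pax6, Nes and Fabp7 were lowest in library 13. Cdh2 (74.4 CPM there, 31.4 to 106 CPM elsewhere) and Sox3 were not. Of the somite genes, Pdgfra, Twist1, Pax1, Foxc1, Foxc2 and Tbx18 were highest in library 13. Meox1, Aldh1a2, Tcf15 and Uncx were higher in library 15. The heart sum came from Gata4, Hand1 and Myl7, with Nkx2-5, Tnnt2 and Myh6 at 0 in all 8 libraries. The surface ectoderm sum was mostly Krt18 (197 CPM) and Krt8 (60.0 CPM), with Tcfap2a at 0.18 CPM and Trp63 at 0 in library 13. Primitive blood genes summed to 1010.2 CPM in library 14 and 924 CPM in library 13, with 0.296 to 210 CPM in the others. Nearly all of this was Hba-x (994 CPM in library 14 and 891 CPM in library 13), with Hbb-y at 0 in all 8. Presomitic mesoderm genes summed to 1.68 to 30.5 CPM over the 8 libraries, with Msgn1 and Ripply2 at 0. Their sum was mostly Cyp26a1 in library 13 (18.0 CPM, with T at 0.3 CPM). In library 11 it was mostly T (22.8 CPM, with Cyp26a1 at 4.99 CPM). Floor plate and notochord genes stood at 11.9 CPM in library 13 and 26.2 to 51.0 CPM elsewhere, and proneural and neuronal genes at 12.5 and 29.9 to 78.4 CPM. Libraries 10 and 12, both of normal dams, were the only ones with high Xist, at 301 and 297 CPM against at most 4.27 CPM. Ddx3y, a gene of the Y chromosome, stood at 0.882 and 0.444 CPM in these and at 188 to 274 CPM in the others. By these genes, libraries 10 and 12 came from female embryos and the others from male ones. Sex thus cannot be fully told apart from dam. In bulk tissue, fewer cells of a type and less RNA per cell cannot be told apart.

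Notch1 was the receptor with the highest level among the members in every library. It stood at 124 and 84.0 CPM in normal open libraries 09 and 10, 97.2 and 83.5 CPM in normal closed libraries 11 and 12, 50.8 and 55.5 CPM in diabetic open libraries 13 and 14, and 63.1 and 120.3 CPM in diabetic closed libraries 15 and 16. Both diabetic open libraries were below all others, and diabetic closed library 16 reached the level of normal open library 09. Of the tags of all 4 Notch receptor genes, Notch1 gave 50.1% (library 13) to 83.3% (library 09).

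Notch2 and Notch3, which share the structure of Notch1, gave few tags. Notch2 stood at 3.16 and 0 CPM in normal open, 3.03 and 3.55 CPM in normal closed, 9.73 and 0 CPM in diabetic open and 3.17 and 10.9 CPM in diabetic closed libraries. The 2 diabetic open libraries thus held its second highest level and no tag at all. The 0 in library 10 allows up to 0.529 CPM and that in library 14 up to 0.358 CPM, by counting error alone. Notch3 stood at 0 and 8.29 CPM, 1.07 and 3.70 CPM, 4.68 and 6.69 CPM, and 5.16 and 1.53 CPM in the same order of groups. It was highest in library 10 and without a tag in library 09 of the same group.

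Dll1, a Delta ligand of neural progenitors, of newly born neurons and of presomitic mesoderm, gave 77.3% to 97.7% of the tags of the 5 Delta and Jagged ligand genes in a library. It stood at 79.9 and 28.6 CPM in normal open, 83.2 and 45.2 CPM in normal closed, 33.5 and 12.7 CPM in diabetic open, and 76.6 and 62.2 CPM in diabetic closed libraries. All 4 closed libraries were above 3 of the 4 open ones, and normal open library 09 was above all closed libraries but 11. Dll3, a Delta-like protein that acts inside the cell and is needed for somite formation, stood at 0.592 and 1.06 CPM, 3.92 and 2.22 CPM, 1.98 and 2.03 CPM, and 5.95 and 0.558 CPM in the same order. The diabetic closed libraries 15 and 16 held both its highest and its lowest level. Jag1, a Jagged ligand, had 1 tag in library 14 and none in the other 7, and no fold change is given for it.

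Lfng adds sugars to Notch receptors and changes their response to ligands, and its transcript oscillates in presomitic mesoderm. It stood at 0 and 3.70 CPM in normal open, 0.178 and 8.14 CPM in normal closed, 0.18 and 11.8 CPM in diabetic open, and 3.97 and 15.5 CPM in diabetic closed libraries. The odd-numbered library was the lower one in each of the 4 groups. The ratio within a group was 45.7 in normal closed and 65.6 in diabetic open tissue, where the lower library had 1 and 3 tags. For Dll1 the odd-numbered library was the higher one in each group. This order was noticed after the values were seen, and its cause was not tested.

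Hes5, a target that marks neural progenitors with active Notch, was the most abundant member. It stood at 151 and 89.6 CPM in normal open, 96.5 and 98.5 CPM in normal closed, 13.9 and 158 CPM in diabetic open, and 150.4 and 155 CPM in diabetic closed libraries. Diabetic open library 13 alone was low, and its partner 14 was the highest of the 8. Sox2, a transcription factor of neural progenitors, was at 30.9 CPM in library 13 and at 287 to 550 CPM elsewhere. Hes5 tags per Sox2 tag came to 0.449 in library 13, within the range of 0.238 to 0.50 of the other 7, so that both genes were low together there. For Notch1 the ratio to Sox2 was 1.65 in library 13 and 0.133 to 0.292 elsewhere. The comparison with Sox2 was chosen after the levels were seen.

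Hes1, a repressor that is expressed in many progenitor types and oscillates, did not follow Hes5. It stood at 43.6 and 56.8 CPM in normal open, 33.8 and 7.40 CPM in normal closed, 25.0 and 6.69 CPM in diabetic open, and 34.1 and 24.8 CPM in diabetic closed libraries. The 2 libraries with under 10 CPM, 12 and 14, belong to different groups, and both normal open libraries were above the other 6. Hes5 tags per Hes1 tag ranged from 0.555 in library 13 to 23.7 in library 14. Hey1, a Hes-related repressor of mesoderm, endothelium and neural tissue, stood at 22.8 and 10.4 CPM in normal open, 8.37 and 6.96 CPM in normal closed, 39.5 and 31.4 CPM in diabetic open, and 20.2 and 23.7 CPM in diabetic closed libraries. The 4 libraries of diabetic dams were above all normal ones except normal open library 09, which lay between them.

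**Figure D2:**
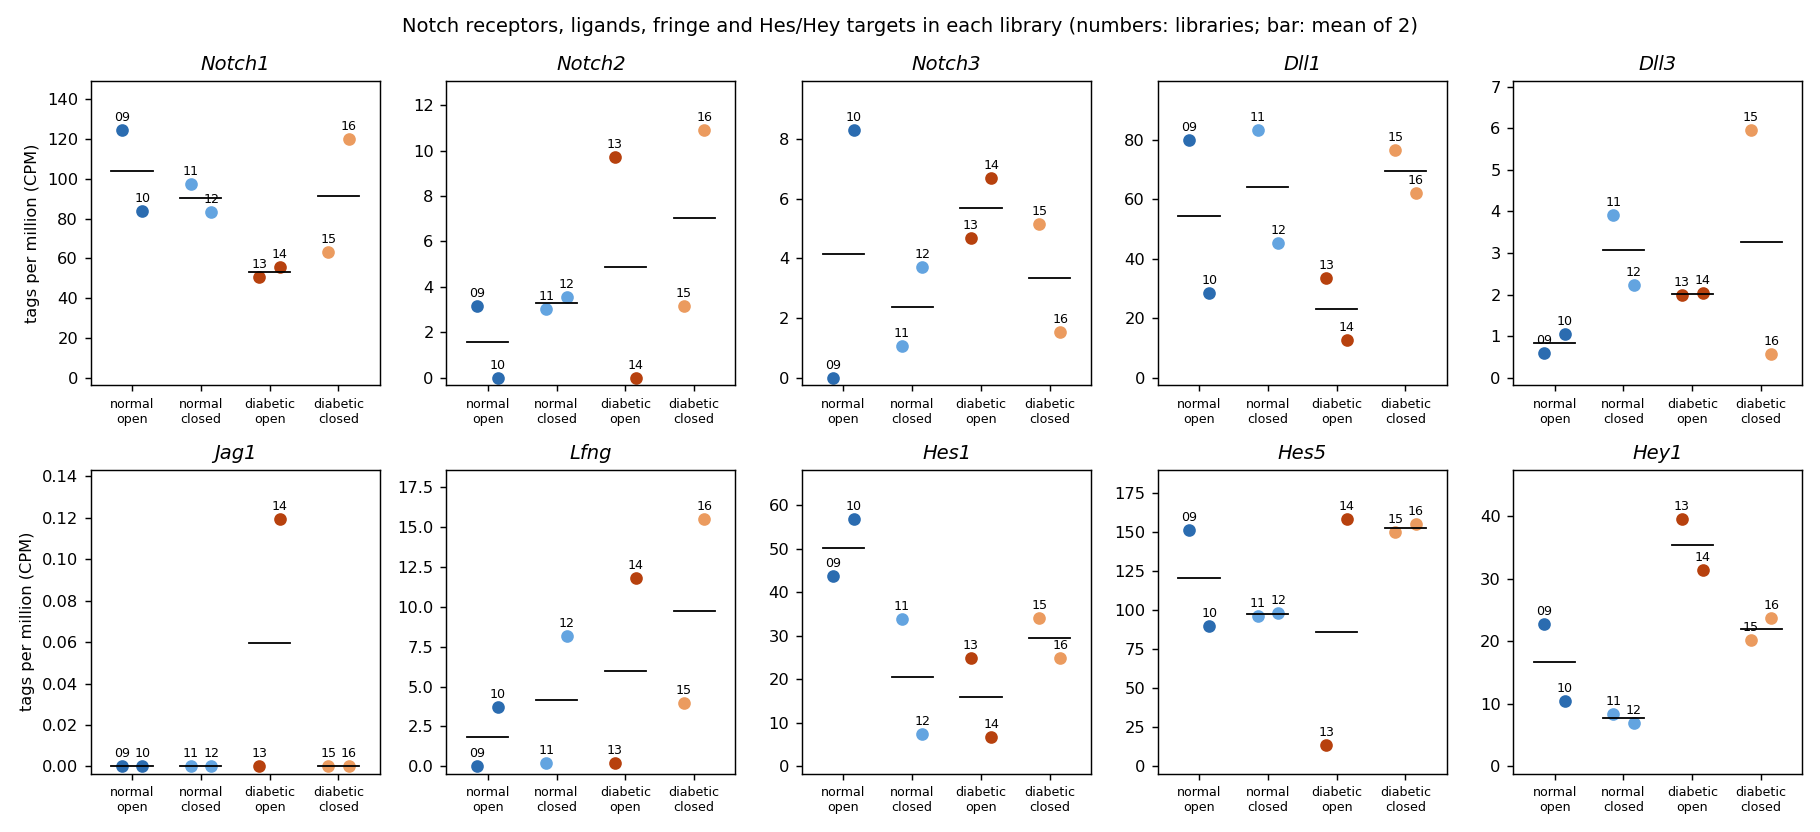
CPM (vertical) of each member in the 4 groups (horizontal), with each point a library, named by its number, and each bar the mean of 2. Hes5 is low in library 13 alone at 13.9 CPM, Notch1 is lowest in both diabetic open libraries, and Hey1 is highest in libraries 13 and 14 at 39.5 and 31.4 CPM.

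In order of mean level the members were Hes5 (114 ± 50.04 CPM, SD over 8 libraries), Notch1 (84.8 ± 28.0), Dll1 (52.7 ± 26.6), Hes1 (29.0 ± 17.1), Hey1 (20.4 ± 11.5), Lfng (5.44 ± 5.84), Notch2 (4.19 ± 4.04), Notch3 (3.89 ± 2.88), Dll3 (2.29 ± 1.84) and Jag1. Neighbours in this order exchanged places in some libraries, except Dll3 and Jag1. Notch1 was above Dll1 in 7 of 8, and Notch2 was above Notch3 in 4 of 8. Replicate libraries often differed by more than counting error. In 25 of the 36 within-group pairs of the 9 members other than Jag1, the exact 95% Poisson intervals of the 2 libraries did not overlap, in all 4 pairs for Dll1, Hes1 and Lfng. The gene-wise biological coefficient of variation, the spread beyond counting error, was lowest for Notch1 at 0.342 and then 0.475 for Hey1, 0.481 for Dll1, 0.554 for Hes5 and 0.625 for Hes1. It was 1.21 to 1.51 for Dll3, Notch3, Lfng and Notch2, against a median of 0.658 over the 11779 genes tested.

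The first comparison asked how neural tube that has closed differs from tissue still open. For Dll1 the closed libraries averaged 66.8 ± 16.9 CPM and the open ones 38.7 ± 28.9 CPM (SD over 4 libraries), and the log2 fold change was 0.94 with a standard error (SE) of 0.48. Hey1 lay the other way, at 14.8 ± 8.404 against 26.0 ± 12.4 CPM, with -0.87 (SE 0.45). Dll3 had the most positive fold change at 1.33 (SE 1.49), from 3.16 ± 2.31 and 1.42 ± 0.708 CPM. No member passed edgeR's quasi-likelihood test over all 11779 genes (adjusted p = 1.00 for each of the 9 tested), and Jag1 had too few tags to be tested.

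Fold changes were positive for 6 of the 9 members tested (median 0.33), against 55.5% of all genes and a median of 0.07. Called by edgeR were 0 of 9 members and 0% of all genes, while 0 members and 3.32% of genes had an unadjusted p below 0.05. DESeq2 called no member and 0.0764% of genes, and limma-voom no member and 0% of genes. The groups overlapped in all 9 members tested, and did not overlap in 2.75% of all genes (1.68% higher and 1.07% lower in closed tissue). Without normal open library 09 the 3 other open libraries were all below the closed ones for Dll1, while 7.5% of all genes then had groups that did not overlap. Its fold change was 1.48 without library 09 (edgeR adjusted p = 0.949) and 0.58 without library 14. The remaining values were 0.33 (SE 0.31) for Notch1, 0.30 (SE 0.57) for Hes5 and -0.15 (SE 0.67) for Hes1. Those of Notch2, Notch3 and Lfng (0.80, -0.71 and 1.00) had standard errors above 1.

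The second comparison set the libraries of diabetic dams against those of normal dams. Hey1 averaged 28.7 ± 8.57 CPM in the former and 12.1 ± 7.25 CPM in the latter (SD over 4 libraries). Its log2 fold change was 1.28 (SE 0.45), and it was the 1 member with an unadjusted p below 0.05 (0.0164 by edgeR). It did not pass over all genes (adjusted p = 0.999). Its fold change was 1.12 to 1.63 whichever library was left out. Notch1 stood at 72.4 ± 32.3 and 97.3 ± 19.2 CPM (-0.50, SE 0.31), Dll1 at 46.2 ± 28.7 and 59.2 ± 26.7 CPM (-0.58, SE 0.48) and Hes1 at 22.7 ± 11.5 and 35.4 ± 20.9 CPM (-0.59, SE 0.67). Hes5 was at 119 ± 70.4 and 109 ± 28.5 CPM (0.06, SE 0.57). With 1 library left out, Notch1 ran from -0.79 (without 16) to -0.25 (without 09), Dll1 from -0.89 (without 12) to -0.047 (without 09) and Hes1 from -1.13 (without 12) to -0.064 (without 14).

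Fold changes were positive for 6 of the 9 members tested (median 0.48), against 52.7% of all genes and a median of 0.04. The highest was Lfng at 1.46 (SE 1.65) and the lowest Hes1. By edgeR 0 members and 0% of all genes were called, and at an unadjusted p below 0.05 there were 4.55% of all genes. DESeq2 called no member and 0.314% of genes, and limma-voom no member and 0% of genes. The groups did not overlap in 3.63% of all genes (2.48% higher and 1.15% lower with diabetic dams) and overlapped in all 9 members tested. Summed endothelial genes ran from 83.9 to 364 CPM with diabetic and from 40.6 to 78.5 CPM with normal dams, with Erg at 0 in all 8 libraries and Kdr at 0 in 7. The sum was 364 CPM in library 13 and 150.3 CPM in library 14, and single genes of the list did not all follow it, with Pecam1 at 0 in library 14 and at 5.29 CPM in library 10. Egfl7, the largest part of the sum in the normal libraries, overlapped between dams, at 47.0 to 143 CPM with diabetic and 25.9 to 49.9 CPM with normal dams. Genes of somites and paraxial mesoderm summed to 303 to 1844 CPM with diabetic and 161 to 478 CPM with normal dams. No marker list was fixed beforehand for comparison with Hey1. The part of endothelial or mesodermal cells in the Hey1 values was not tested. Libraries with high Xist were found with normal dams only, and without both the Hey1 fold change was 0.95 (SE 0.46, adjusted p = 0.880).

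**Figure D3:**
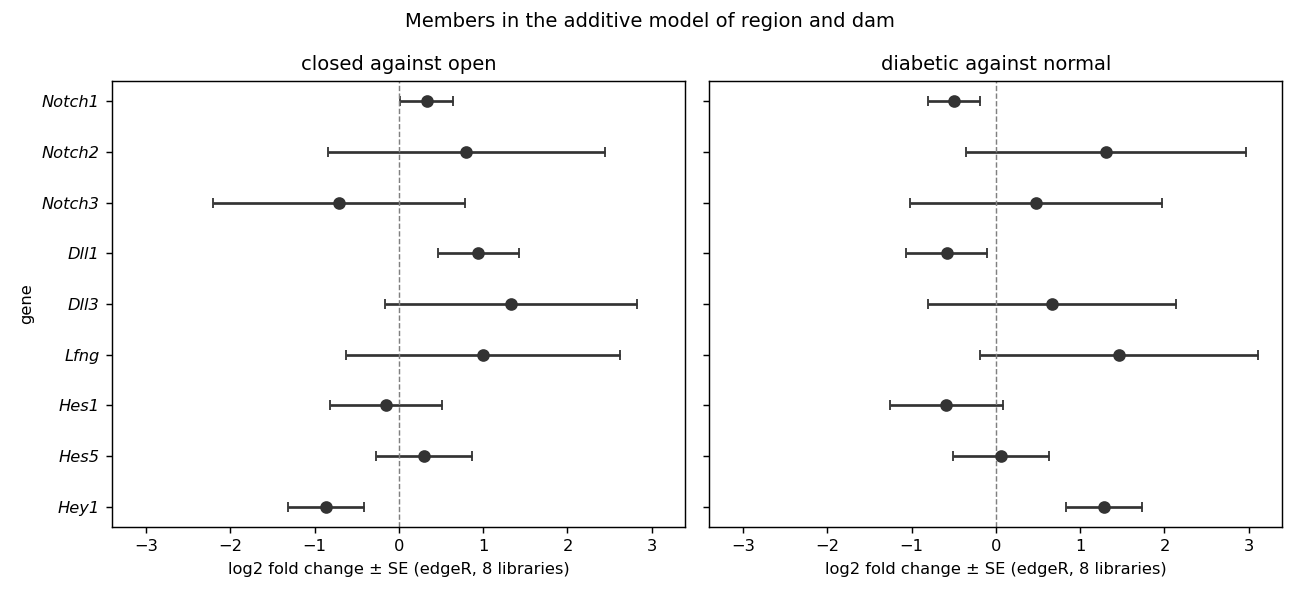
Log2 fold change with its standard error (horizontal) for the 9 members tested (vertical), for closed against open tissue on the left and diabetic against normal dams on the right, from the additive edgeR model over 8 libraries. Hey1 with diabetic dams lies at 1.28 with SE 0.45, and the bars of Notch2, Notch3, Dll3 and Lfng span more than 1 unit to each side.

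The 4 simple differences and the interaction gave no call for a member by edgeR, DESeq2 or limma-voom, with 0% of all genes called by edgeR. By edgeR, at an unadjusted p below 0.05, there was 1 member within diabetic dams (Dll1, 2.78% of all genes) and 1 within open tissue (Notch1, 7.22% of all genes), and none within normal dams (3.4%), within closed tissue (1.17%) or in the interaction (3.74%). By limma-voom these counts were 2 within diabetic dams (5.2% of all genes), 3 in open tissue (11%), 1 within normal dams (3.88%), 0 in closed tissue (1.58%) and 2 for the interaction (3.93%). DESeq2 called 0.229% of all genes within normal dams, 0.391% within diabetic dams, 1.66% in open tissue, 0.017% in closed tissue and 0.144% for the interaction, and limma-voom 0.00849% within diabetic dams, in open tissue and for the interaction. Positive fold changes were found for 4 of 9 members within normal dams (53.6% of all genes), 7 within diabetic dams (52.6%), 5 in open tissue (51.1%), 8 in closed tissue (51.7%) and 5 for the interaction (50.7%).

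Dll1, Notch1 and Hes1 averaged less in diabetic open tissue than in diabetic closed or normal open tissue, without passing the test. Within diabetic dams, closed against open tissue gave 1.63 (SE 0.64) for Dll1, 0.82 (SE 0.40) for Notch1, 0.93 (SE 0.81) for Hes1 and 0.87 (SE 0.80) for Hes5 (adjusted p = 1.00 each). In open tissue, diabetic against normal dams gave -0.99 (SE 0.40) for Notch1 (adjusted p = 0.664), -1.26 (SE 0.63) for Dll1 and -1.67 (SE 0.82) for Hes1 (0.680 each), and -0.51 (SE 0.79) for Hes5 (0.944). These sizes depended on single libraries. In open tissue Dll1 ran from -2.13 (without 13) to -0.29 (without 09), Notch1 from -1.29 (without 10) to -0.64 (without 09) and Hes1 from -2.91 (without 13) to -1.04 (without 14). Within diabetic dams Dll1 ran from 1.12 (without 14) to 2.499 (without 13), Notch1 from 0.30 (without 16) to 1.22 (without 15) and Hes1 from 0.31 (without 14) to 2.18 (without 13).

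Other members stood at the ends of the range in the remaining differences. Dll3 was highest within normal dams for closed against open tissue (1.94, SE 2.20), where Hes1 was lowest. Notch3 was lowest within diabetic dams (-0.72, SE 2.22), and Lfng highest for diabetic against normal dams in open tissue (1.73, SE 2.47), where Hes1 was lowest. In closed tissue Hey1 was highest at 1.499 (SE 0.68, adjusted p = 1.00 by edgeR).

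Hes5 was the member whose call depended on 1 library. Without library 14, diabetic open tissue is represented by library 13 alone, and Hes5 passed for closed against open tissue within diabetic dams (3.53, SE 0.55, adjusted p = 0.0264) and for diabetic against normal dams in open tissue (-3.17, SE 0.54, adjusted p = 0.0307). In the same fits edgeR called 0.161% and 0.469% of all genes. Without library 13 the same differences were -0.01 (SE 0.44) and 0.37 (SE 0.44). The test then assumes that the lone library varies like the other groups. For Hes1 the fold change of closed against open tissue was -1.24 (SE 0.81) within normal dams and 0.93 within diabetic dams, where closed library 16 (24.8 CPM) and open library 13 (25.0 CPM) overlapped. The interaction was 2.17 (SE 1.14, edgeR adjusted p = 1.00). With 1 library left out the value within normal dams ran from -2.73 (without 11) to -0.54 (without 12), and the interaction from 1.49 (without 12) to 3.69 (without 11). Dll3 had the lowest interaction, -1.20 (SE 3.004).

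The wider pathway was read from a list of 42 further genes, of which 36 were tested and 3 (Hes7, Numb and Psenen) had no tag in any library. By edgeR, DESeq2 and limma-voom 0 of the 36 were called in any of the 7 comparisons. By edgeR 4 (for diabetic against normal dams) and 3 (for the same in open tissue) had an unadjusted p below 0.05. Over all genes tested these shares were 4.55% and 7.22%. For diabetic against normal dams in open tissue, edgeR called Hes3 with no filter on low counts (-2.17, SE 0.62, adjusted p = 0.0497, with 0.91% of all genes called). Without library 14 the fold changes there were -4.498 for Hes3 and -2.45 for Dtx4, but diabetic open tissue is then library 13 alone. Apart from the fit without library 14, edgeR called 0 of the list in the other alternatives run. For closed against open tissue 26 of 36 were positive (median 0.15), against 55.5% of all genes. For diabetic against normal dams 18 of 36 were positive (median -0.00), against 52.7% of all genes. Rbpj, the DNA-binding partner of all Notch receptors, stood between 255 and 333 CPM in the 8 libraries, and Snw1, a cofactor in the same complex, between 554 and 702.5 CPM. Their spread was small beside that of the members, with Rbpj at 281 ± 26.7 CPM. The ubiquitin ligase Itch (49.9 to 131 CPM) and the coactivator Ep300 (53.0 to 117.5 CPM) were also among the 6 highest genes of the list.

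Between diabetic and normal dams, 4 of these 36 genes had groups that did not overlap, all lower with diabetic dams, against 1.15% of all genes lower without overlap. Dtx4, a Deltex ubiquitin ligase, stood at 29.6, 96.3, 76.2 and 86.2 CPM in libraries 13 to 16 and at 136, 181, 124 and 114 CPM in libraries 09 to 12 (-0.95, SE 0.35). Spen, a corepressor that binds Rbpj, was at 56.6 to 71.4 CPM with diabetic and 94.6 to 117 CPM with normal dams (-0.73, SE 0.22). Hes3, a Hes repressor of the early neural plate, was at 3.18 CPM in library 13 and 28.3 to 28.6 CPM in the other 3 libraries of diabetic dams, and at 32.9 to 73.6 CPM with normal dams (-1.33, SE 0.61). Psen2, a gamma-secretase subunit, was at 10.5 to 20.5 and 21.4 to 34.1 CPM (-0.55, SE 0.42). None of the 4 passed over all genes (edgeR adjusted p = 0.999 each). Without library 13 the values were -0.62 for Dtx4, -0.67 for Spen and -0.80 for Hes3. Spen, Hes3 and Psen2 were chosen after their values were seen.

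**Figure D4:**
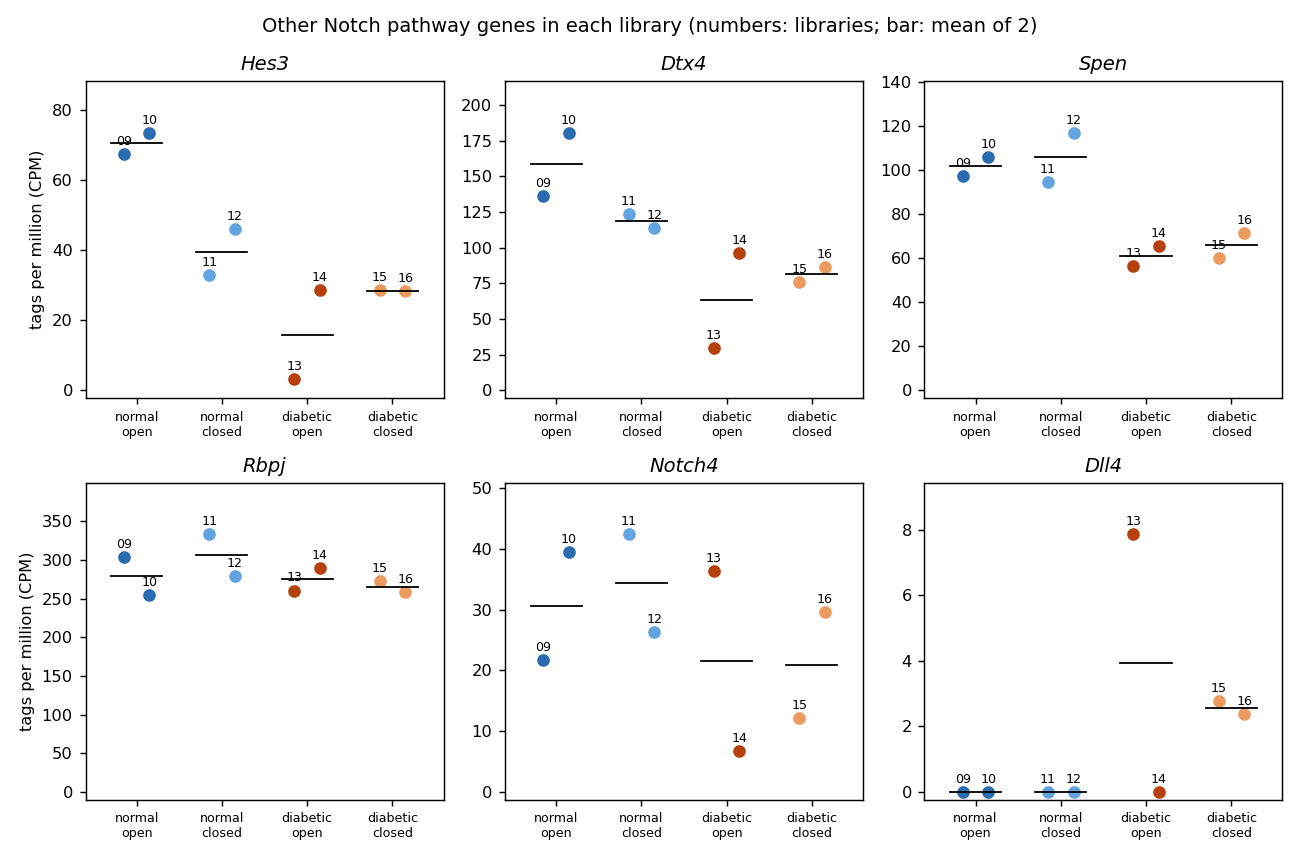
CPM (vertical) of 6 further pathway genes in the 4 groups (horizontal), with each point a library, named by its number, and each bar the mean of 2. Hes3, Dtx4 and Spen are lower in all 4 libraries of diabetic dams, Rbpj stays between 255 and 333 CPM, and Dll4 has tags only in libraries 13, 15 and 16.

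Dll4 and Notch4 are the genes of the list typical of endothelium. Dll4 was at 7.87 CPM in library 13, 2.78 in library 15 and 2.37 in library 16, and had no tag in library 14 or in the 4 libraries of normal dams. Pooled over libraries it was at least 40.8-fold higher with diabetic dams, and at least 14.1-fold without library 13, against 3 tags over the 4 normal libraries, a bound that covers counting error only. Library 13 held 131 of the 162 Dll4 tags. Dll4 was not called (adjusted p = 0.999 by edgeR). Kat2b, another gene of the list, also had tags in libraries 13, 15 and 16 only. The same bounds for Kat2b were 22.7-fold, and 15.5-fold without library 13. Notch4 had tags in all 8 libraries, highest in normal closed library 11 at 42.4 CPM and lowest in library 14 at 6.80 CPM. The 14 endothelial genes summed to 48.8 CPM in library 11 and 150.3 CPM in library 14. Jag2 reached at most 2.31 CPM, and Nrarp, a Notch target that feeds back on the pathway, at most 6.17 CPM. Dtx1 had tags in library 13 only (2.58 CPM).

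Genes whose levels ran most like those of Hes5, Dll1 and Notch1 were ranked by Pearson's r of log2(CPM + 1) over the 8 libraries, among 8072 genes with a mean of at least 50 tags. This is a description over 8 points, and the points share their libraries and depths. For Hes5 they were Spata13, Sema4d, Car12, Ccnd2 and Arhgap24 (r from 0.97 to 0.975). Library 13 was the low point, and without it r was 0.632 to 0.865. For Dll1 they were Kctd6, Cdv3, 5430437P03Rik, Adarb1 and Ttc4 (0.947 to 0.984, and 0.946 to 0.987 without library 13). For Notch1 they were Arvcf, Fam171a1, Spag9, Cxcr7 and Tnrc6c (0.90 to 0.958, and 0.864 to 0.948 without it). No other member was among these genes. Among the members r was 0.617 between Notch1 and Dll1, 0.51 between Notch1 and Hes5, and 0.173 between Dll1 and Hes5, and it was -0.07 for Notch1 and Hes5 without library 13. Hes5 and Hey1 ran together in the 7 other libraries (r = 0.94) but not over all 8 (r = -0.26), since library 13 had the lowest Hes5 and the highest Hey1. That pair was chosen after its values were seen.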

How the data were processed

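Tags of SOLiD SAGE libraries, prepared from 7 ng of total RNA each per the labels' protocols, were used as deposited by the authors, as raw counts per gene symbol in 1 table per library. They were counted on mm9, as the submitters' processing notes name it. Which aligner, counter and annotation were used, and how tags matching several genes were handled, is not given in the sources used here. Groups came from the sample titles. Levels are CPM on the library total. Genes were kept by filterByExpr (minimum count 10, minimum total 15), which left 11779 of 26608, scaled by TMM (factors 0.975 to 1.04) and tested with edgeR 4.0.16 in R 4.3.3 by the quasi-likelihood F test, with Benjamini-Hochberg adjustment over all genes tested and a threshold of 0.05. Region and dam were fitted additively, and the 4 simple differences and the interaction as contrasts of the 4 groups. DESeq2 1.42.0 and limma-voom (limma 3.58.1) were alternatives, with other scalings, no filter and each library left out. The fits were tested on simulated counts.

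The members, the lists of 42 pathway genes and of cell type markers, and the tests were chosen with earlier results of these data known. The text names the members, the 6 most abundant genes of the wider list with Rbpj, Notch4, Dll4, Jag2, Hes7, Nrarp and Dtx1, for Hes5, Dll1 and Notch1 the 5 genes with the highest r, and in each comparison the members with the largest fold change in each direction. One gene that this rule names is not reported here. Marker lists are given by their sums. Other genes were named after their values were seen. Standard errors are those implied by the F statistic. Poisson intervals and the limit of 3 tags cover counting error only. Nothing in the labels says that libraries of a group are separate animals. By Xist and Ddx3y the libraries of each normal group differed in sex, and so came from different embryos. Those of the diabetic groups did not differ in this way. The p-values measure the spread between these libraries, which may be technical in part. No 2 libraries agreed within counting error.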

Additional observations from a re-analysis of the deposited data

Results flagged for a closer look

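Among 36 sets of 4 libraries (9 members in open, closed, normal and diabetic libraries), 4 held a library far from the other 3 by Dixon's test, where chance flags about 1 set in 20. That rate is for independent sets of normally distributed values. The sets here share libraries and some hold counts of 0, so the count of flags cannot be set against it. Hes5 was at 13.9 CPM in library 13, against 150.4 to 158 CPM in the other libraries of diabetic dams. With normal dams it was at 151 CPM in library 09, against 89.6 to 98.5 CPM in the other 3. Notch2 was at 10.9 CPM in closed library 16, against 3.03 to 3.55 CPM in the other closed libraries, and at 0 CPM in normal library 10, against 3.03 to 3.55 CPM in the other normal libraries.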

How the results depend on the processing

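No paired analysis was run, because no library number occurs in more than 1 group and the labels give no other link between libraries. These numbers do not tell whether an open library shares an embryo with a closed one, so pairing is unknown. The count of members past the threshold stayed at 0 in all 7 comparisons under both other scalings, without the filter, with DESeq2, with limma-voom and without the libraries with high Xist (10 and 12, an alternative chosen after seeing the data). With 1 library left out it ran from 0 to 1 for closed against open tissue within diabetic dams and for diabetic against normal dams in open tissue, the 1 being Hes5 without library 14, and stayed at 0 otherwise. Members whose groups did not overlap ran from 0 to 1 of 9 with 1 library left out, while all genes ran from 4.71% to 7.5% by region and from 5.44% to 7.83% by dam. These were Dll1 (without 09) and Dll3 (without 16) by region, and Hey1 (without 09 or 15) and Notch1 (without 16) by dam. Without libraries 10 and 12 there were 3 by dam (Notch3 and Lfng higher, Dll1 lower), with 16.5% of all genes, and 0 by region, with 8.7%. Over all genes, edgeR called 0 in each comparison. Without the filter on low counts it called 29 by region, 89 by dam, 22 within normal dams, 41 within diabetic dams, 138 in open tissue, 11 in closed tissue and 23 for the interaction, and DESeq2 called 9, 37, 27, 46, 195, 2 and 17 in that order. With 1 library left out edgeR called at most 61, in open tissue without library 14. Of 18 log2 fold changes of members by region and dam, 11 kept their sign whichever library was left out. The others ran from -0.37 to 2.42 (Notch2, dam), -1.14 to 0.78 (Notch3, region), -0.67 to 0.40 (Hes1, region), -0.18 to 0.89 (Hes5, region), -0.53 to 0.54 (Hes5, dam), -0.37 to 2.54 (Lfng, region) and -0.046 to 2.86 (Lfng, dam). Hes5 ran from -0.0072 to 3.53 for closed against open tissue within diabetic dams and from -3.17 to 0.37 for diabetic against normal dams in open tissue. Without libraries 10 and 12 the sign turned for Notch3 (0.61, region), Hes1 (0.51, region) and Hes5 (-0.18, dam), and limma-voom gave -0.53 for Hes5 by dam. Apart from the libraries left out, the cause was not tested. Each group has 2 libraries, and the median standard error over all genes was 0.67 by region or dam.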
